A study of Mus musculus with 2 samples.

Results

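The E2F transcription factors and the retinoblastoma pocket proteins were measured in 1 culture of MCMs transfected with siRNA-NC and 1 culture transfected with siRNA-*Ppp2r5d*. The members were chosen by gene name, as the 10 genes *E2f1*, *E2f2*, *E2f3*, *E2f4*, *E2f5*, *E2f7*, *E2f8*, *Rb1*, *Rbl1* and *Rbl2* among 37074 gene names on the microarray. All 10 were well above background on both arrays, together with 20311 genes in all. MCMs are mouse cardiomyocytes that were bought from a supplier, passaged in culture and kept in DMEM with 2% FBS. Both cultures were changed to glucose-free medium 48 h after transfection and collected at 64 h, so the negative control went through the same transfection and starvation. The labels name 1 array for each siRNA, a single siRNA against *Ppp2r5d* was used, and the age and strain of the mice are not given in the sources used here. The siRNA and any other difference between both cultures therefore cannot be told apart, no p-value was computed, and fewer cells of a type and less RNA per cell cannot be told apart either.

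E2F factors bind the promoters of genes for DNA replication and cell division. E2f1, E2f2 and E2f3 are the activator E2Fs, E2f4 and E2f5 act mainly as repressors together with pocket proteins, and E2f7 and E2f8 are atypical repressors that bind DNA without a DP partner. The pocket proteins Rb1, Rbl1 (p107) and Rbl2 (p130) hold E2Fs in check until cyclin-dependent kinases phosphorylate them at the G1/S transition. Protein phosphatase 2A, of which Ppp2r5d is a regulatory subunit, is one of the phosphatases known to remove phosphate from pocket proteins. In the adult heart, silencing of E2F targets by Rb1 and Rbl2 is tied to the exit of cardiomyocytes from the cell cycle. Microarrays measure RNA and give no level of phosphorylation.

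The E2F and pocket protein genes did not move as 1 block with siRNA-*Ppp2r5d*. Lower values were seen for *E2f7*, *E2f1*, *Rbl1* and *E2f2*, with log2 fold changes from -0.58 to -0.36, and higher values for *E2f3*, *E2f8* and *E2f4*, from 0.48 to 0.25. *E2f5*, *Rbl2* and *Rb1* lay closest to 0. As a group, 7 of the 10 genes were lower, against 46.1% of all genes measured on both arrays, and the median log2 fold change was -0.13, against 0.024 over all genes. No gene of the 10 was 2-fold lower as a mean of its probes, where 1.06% of all genes were, and none was 2-fold higher, where 0.871% were. None was 1.5-fold lower or higher, where 4.64% and 3.33% of all genes were. Of single probes, the brightest of *Rbl1* passed the threshold, at 2.18-fold lower. *Ppp2r5d* itself, the check of the labels, had an intensity of 4701 with siRNA-NC and 676 with siRNA-*Ppp2r5d*.

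Each value is a background-corrected intensity of 1 array, and each log2 fold change is siRNA-*Ppp2r5d* over siRNA-NC after subtraction of the 75th percentile of each array. This scaling added 0.19 to every log2 ratio of intensities, so a gene with a slightly dimmer signal can have a positive log2 fold change. Both arrays lay on 1 slide, 59.9% and 59.3% of their spots were well above background, and none was saturated. The error of a spot was estimated by the scanner software from its own error model, and came to 0.20 on the log2 scale for the fold change of a bright probe. The measured SD between spots of the same probe was smaller, with a median of 0.036 over 292 probes with 10 spots each. Neither error covers the difference between cultures, and the number of arrays limits the precision.

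The cultures carry the label cardiomyocytes. Of 15 cardiomyocyte markers, 10 were well above background on both arrays, while *Actn2*, *Myl2* and *Pln* were well above it on neither. Of 10 fibroblast markers 8 were well above background on both arrays, of 5 smooth muscle markers 5, of 5 macrophage markers 4 and of 5 endothelial markers 1. *Tcf21*, *Thy1*, *Adgre1*, *Cdh5*, *Kdr* and *Vwf* were well above background on neither array. The summed intensity of the cardiomyocyte list was 10204 with siRNA-NC and 9648 with siRNA-*Ppp2r5d*, that of the fibroblast list 327890 and 310724, and that of the smooth muscle list 147494 and 134239. The macrophage list summed to 4011 and 2620 and the endothelial list to 89.4 and 68.2. After scaling, the log2 ratios of these sums were 0.11, 0.11, 0.055, -0.42 and -0.20. Bright genes carry the sums, and single markers moved further. Of the 10 cardiomyocyte markers measured on both arrays 8 were higher, 4 of them at least 1.5-fold, where 3.33% of all genes were, and their median was 0.32. Chosen after their values were seen, *Cnn1* and *Tagln* of smooth muscle were 5.31-fold and 1.80-fold higher. *Csrp3* and *Ttn* of cardiomyocytes, chosen likewise, were 3.82-fold and 1.85-fold higher, and *Lum* of fibroblasts 2.12-fold. Lower were 3 of 5 smooth muscle markers and 4 of 8 measured fibroblast markers, where 46.1% of all genes were. The medians of these lists were -0.022 and 0.035. The 4 cardiomyocyte markers at least 1.5-fold higher were *Csrp3*, *Ttn*, *Myl3* and *Nppa*. *Csrp3* was dim, at 37.7 with siRNA-NC and 126 with siRNA-*Ppp2r5d*. So were *Myl3*, at 40.4 and 66.2, and *Nppa*, at 16.6 and 22.4, where the lowest intensities well above background were 14.9 and 13.5. In the macrophage list *Cd68* and *Lyz2* had log2 fold changes of -0.77 and -0.68, *Csf1r* -0.066 and *Ptprc* 0.13. The endothelial sum rests mostly on *Pecam1*, with -0.23, and on values not well above background. The cultures therefore gave signal for markers of several cell types, and these moved in both directions beside the E2F and pocket protein genes. The part of these cell types in the results was not tested.

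The promoters of 4 members are shown because they hold an E2F motif near the annotated start of the gene and belong to genes that moved in opposite directions. The sequences are RefSeq windows on GRCm38.p6, from 250 bases before to 50 bases after the start, written on the strand of the gene, and the capitals mark the motif. The motif was searched on both strands in the forms TTTCCCGC, TTTCGCGC, TTTGCCGC and TTTGGCGC.
*Rbl1*, chr2:157204485-157204784, minus strand: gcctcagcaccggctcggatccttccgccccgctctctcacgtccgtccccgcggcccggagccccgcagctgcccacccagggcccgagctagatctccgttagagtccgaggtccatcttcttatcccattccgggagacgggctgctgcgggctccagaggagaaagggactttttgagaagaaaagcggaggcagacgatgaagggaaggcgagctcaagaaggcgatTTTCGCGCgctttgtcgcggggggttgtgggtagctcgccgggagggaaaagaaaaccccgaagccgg
*E2f2*, chr4:136172024-136172323, plus strand: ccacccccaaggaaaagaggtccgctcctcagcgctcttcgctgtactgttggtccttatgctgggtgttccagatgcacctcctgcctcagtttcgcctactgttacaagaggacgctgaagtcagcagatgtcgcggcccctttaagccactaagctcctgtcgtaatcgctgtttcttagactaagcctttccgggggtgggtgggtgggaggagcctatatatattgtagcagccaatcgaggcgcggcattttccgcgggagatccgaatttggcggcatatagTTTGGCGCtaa
*E2f7*, chr10:110745189-110745488, plus strand: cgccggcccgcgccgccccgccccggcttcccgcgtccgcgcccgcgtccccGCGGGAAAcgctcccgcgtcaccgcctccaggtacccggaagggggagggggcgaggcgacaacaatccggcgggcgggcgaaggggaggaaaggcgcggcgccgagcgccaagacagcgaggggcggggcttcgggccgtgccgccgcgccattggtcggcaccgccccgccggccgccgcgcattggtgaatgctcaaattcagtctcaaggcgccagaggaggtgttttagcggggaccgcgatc
*E2f3*, chr13:29986014-29986313, minus strand: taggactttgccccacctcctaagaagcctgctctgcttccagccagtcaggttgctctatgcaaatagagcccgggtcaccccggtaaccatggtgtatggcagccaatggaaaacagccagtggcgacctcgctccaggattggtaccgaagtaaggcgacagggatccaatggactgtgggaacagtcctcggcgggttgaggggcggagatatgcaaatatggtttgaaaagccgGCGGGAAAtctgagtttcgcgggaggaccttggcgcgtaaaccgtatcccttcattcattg

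In these windows the motif began 18 bases before the start of *Rbl1*, at base 40 after the start of *E2f2*, 198 bases before that of *E2f7* and 11 bases before that of *E2f3*. It read on the strand of the gene in *Rbl1* and *E2f2* and on the opposite strand in *E2f7* and *E2f3*. Windows were found for 7 of the 10 members, *E2f1*, *E2f2*, *E2f3*, *E2f7*, *E2f8*, *Rbl1* and *Rbl2*. Of their 9 windows 4 held the motif, against 2.26% of the 32851 windows of all genes. Of the 4 genes with the motif, *Rbl1*, *E2f2* and *E2f7* were lower with siRNA-*Ppp2r5d*, where 46.1% of all genes measured on both arrays were, and *E2f3* was higher. Of the members with a window but no E2F match, *E2f1* and *Rbl2* were lower and *E2f8* was higher. The directions thus do not set the genes with the motif apart. The windows of *E2f1* and *E2f8* lie 466 and 477 bases from the 5′ end of the annotated gene, and hold no E2F match.

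Another motif, TTTGAA, the core of the cell cycle genes homology region through which MuvB complexes bind late cell cycle promoters, was searched in the same way. It was present in 4 of the 9 windows, 1 each of *E2f2*, *E2f3*, *E2f8* and *Rbl2*, against 17.9% of all windows. In *E2f3* it began 23 bases before the start and did not overlap the E2F motif. A match in a window is a run of letters and does not show that a factor binds there.

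The activator E2Fs were split. *E2f1*, which drives entry into S phase and is itself an E2F target, had an intensity of 651 with siRNA-NC and 397 with siRNA-*Ppp2r5d*, from 1 probe. Its log2 fold change was -0.52, or 1.44-fold lower, with a software error of 0.20, and 5.86% of all genes had a lower value. The probe lies on chromosome 2 of build mm9, from 154385798 to 154385857, on the minus strand. *E2f1* thus lay below the bulk of genes, without reaching 1.5-fold.

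*E2f2*, an activator that overlaps with *E2f1* in function, was measured by 2 neighbouring probes on chromosome 4 that gave nearly the same ratio. The brighter probe had 2416 with siRNA-NC and 1673 with siRNA-*Ppp2r5d*, a log2 fold change of -0.34. The other had 1242 and 840, a log2 fold change of -0.37. Their mean of -0.36 is 1.28-fold lower, with an error of 0.14. On each array both probes were between 62.4 and 162 times the lowest signal well above background, so neither was dim, and 11.2% of all genes had a lower value.

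*E2f3*, the activator that mouse fibroblasts need for normal proliferation, went the other way. Its single probe read 287 with siRNA-NC and 350 with siRNA-*Ppp2r5d*, so it was brighter before any scaling. The log2 fold change was 0.48, or 1.39-fold higher, with an error of 0.20, and 94.8% of all genes had a lower value. The scanner files place the probe on chromosome 13 of mm9 between 30001985 and 30003071, an interval longer than the probe. The difference between *E2f3* and *E2f1* was 0.999 on the log2 scale with an error of 0.29, and that between *E2f3* and *E2f2* was 0.83 with an error of 0.25. Both differences were above 0 in all 11 settings tried, from 0.84 to 1.01 and from 0.73 to 0.88. *E2f2* and *E2f1* differed by 0.17, less than the error of 0.25.

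The canonical repressors lay on either side of 0. *E2f4*, which binds promoters of resting cells together with Rbl2, had an intensity of 149 with siRNA-NC and 156 with siRNA-*Ppp2r5d*, a log2 fold change of 0.25 with an error of 0.21, and 84.2% of all genes had a lower value. *E2f5*, the other partner of Rbl2, had 556 and 452, a log2 fold change of -0.11 with an error of 0.20. For *E2f5* 30.5% of all genes had a lower value. Each gene rests on 1 probe. Their difference was 0.36 with an error of 0.29, and lay between 0.28 and 0.39 in the 11 settings.

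The atypical repressors moved apart. *E2f7*, which is induced by activator E2Fs and then represses E2F targets, was measured by 3 probes that were all lower. The brightest had 828 with siRNA-NC and 444 with siRNA-*Ppp2r5d*, a log2 fold change of -0.71, or 1.63-fold lower. The second probe had 84.6 and 39.1, a log2 fold change of -0.92, or 1.90-fold lower. Along the plus strand of chromosome 10 this second probe lies upstream of the brightest one, and the scanner files assign it to another transcript. The third probe, between both, had 35.0 and 28.3, a log2 fold change of -0.12 with an error of 0.28. It was 2.35 and 2.10 times the lowest signal well above background, so its intensity was near the limit of the arrays. The mean over the 3 probes was -0.58 with an error of 0.14, and 4.71% of all genes had a lower value.

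*E2f8*, the closest relative of *E2f7* and often redundant with it, was higher. Its brightest probe had 947 with siRNA-NC and 1034 with siRNA-*Ppp2r5d*, a log2 fold change of 0.32, and the second had 156 and 182, with 0.41. The third had 12.9, not well above background, and 18.2, which gives a bound of 1.39-fold higher, with a software error of 0.45 on the log2 scale. It was well above background with siRNA-*Ppp2r5d* alone, so the bound could only point up and is no evidence of direction. The 2 probes measured on both arrays were both higher, and their mean was 0.36 with an error of 0.15. The difference between *E2f8* and *E2f7* was 0.95 with an error of 0.20, and lay between 0.64 and 1.05 in the 11 settings. Among the E2F genes, the pair of atypical repressors and the activators *E2f1* and *E2f3* were therefore separated by more than the software error in each of the 11 settings. That error covers neither the difference between arrays nor the spread between probes of a gene, which for *E2f7* ran from -0.92 to -0.12.

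**Figure D1:**
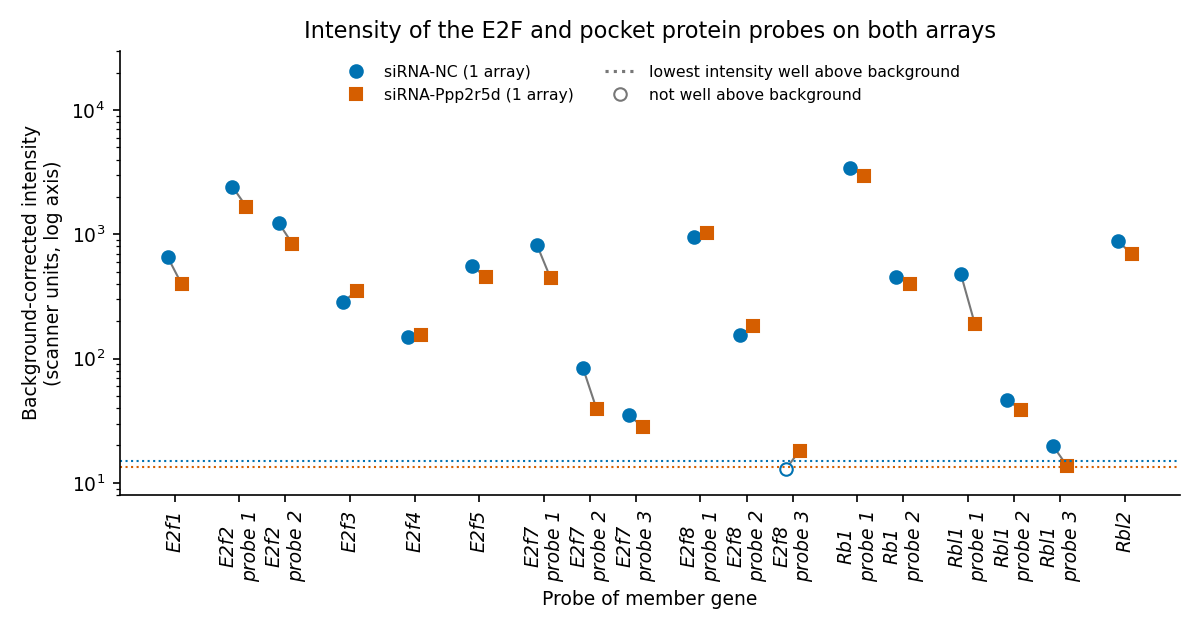
Background-corrected intensity (log axis) of the 18 probes of the E2F and pocket protein genes with siRNA-NC (circles) and siRNA-*Ppp2r5d* (squares), 1 array each, with probes of a gene numbered by brightness. Dotted lines are the lowest intensities well above background, 14.9 and 13.5, and the open circle is a value not well above background. The steepest line is that of *Rbl1* probe 1, from 476 to 191. All 3 probes of *E2f7* slope down, while the 2 probes of *E2f8* measured on both arrays slope up.

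The 3 pocket protein genes lay at or below 0, with a median of -0.15. *Rb1*, the retinoblastoma protein gene, had 3417 with siRNA-NC and 2958 with siRNA-*Ppp2r5d* in its brighter probe, a log2 fold change of -0.018. Its other probe had 455 and 400, a log2 fold change of 0.0051. These 2 probes do not overlap on chromosome 14, and their ratios differed by less than the median SD between spots. With a mean of -0.0062 and an error of 0.14, *Rb1* had no direction at this precision, and 45.2% of all genes had a lower value.

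*Rbl2*, the pocket protein most abundant in resting cells, had 883 with siRNA-NC and 699 with siRNA-*Ppp2r5d*, a log2 fold change of -0.15 with an error of 0.20. This is within 1 error of 0 and of the value of *Rb1*. The difference between *Rb1* and *Rbl2* was 0.14 with an error of 0.25, so their order is not set by these arrays.

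*Rbl1*, the pocket protein that is an E2F target and accumulates in cycling cells, had 3 probes that were all lower, by unequal amounts. The brightest had 476 with siRNA-NC and 191 with siRNA-*Ppp2r5d*, a log2 fold change of -1.13 with an error of 0.21. At 5.49 times its error, this was the change of highest ratio to its error among the 17 probes of the 10 genes measured on both arrays. The second probe had 46.5 and 38.9, a log2 fold change of -0.067 with an error of 0.25, and the third had 19.8 and 13.7, a log2 fold change of -0.34 with an error of 0.42. Both were under 5 times the lowest signal well above background, at 3.12 and 1.33 times it with siRNA-NC. With siRNA-*Ppp2r5d* they were 2.89 and 1.02 times it, so the third probe was at the limit of the arrays. On the minus strand of chromosome 2 the brightest probe lies nearest to the end of the gene, from 156972143 to 156972202 of mm9, and the scanner files assign the dim ones to another transcript. The mean of -0.51, or 1.42-fold lower, gives each of these probes the same weight. With the brightest probe alone *Rbl1* was the 1 gene of the 10 that passed 2-fold, and the difference between *Rb1* and *Rbl1* ran from 0.26 to 1.11 over the settings. Whether the transcripts changed by different amounts was not tested.

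**Figure D2:**
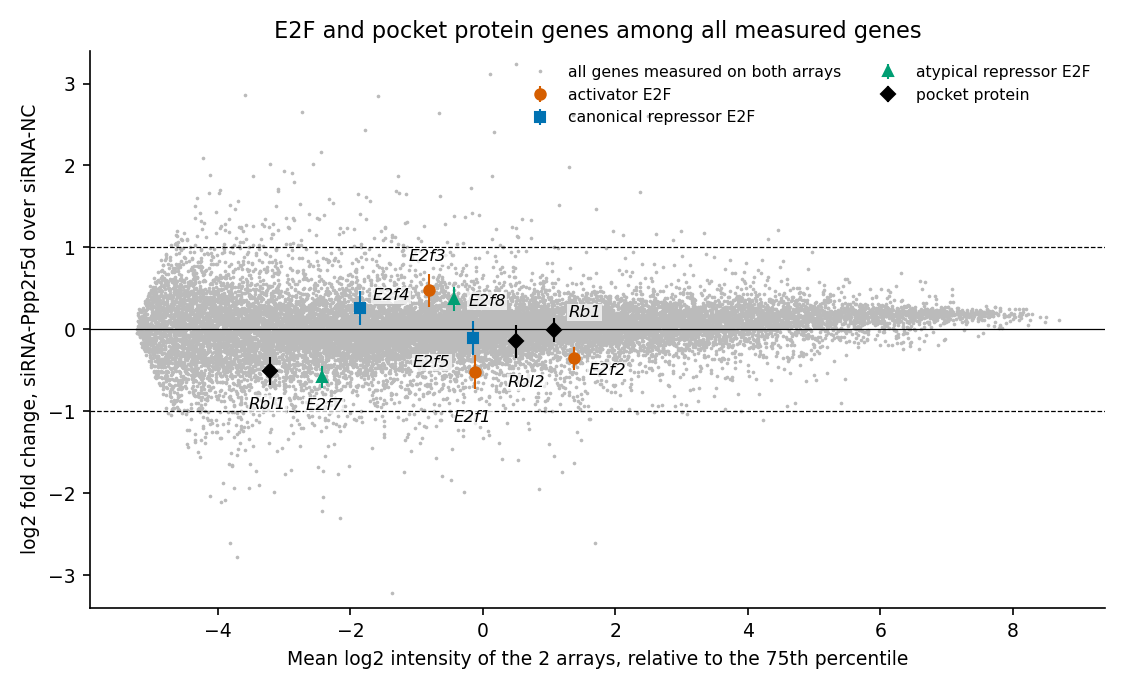
Log2 fold change of each gene measured on both arrays (y axis) against its mean log2 intensity relative to the 75th percentile (x axis), as grey points, with the 10 E2F and pocket protein genes marked by class. Bars are the software error of each gene, and dashed lines mark 2-fold. *Rbl1* and *E2f7*, whose mean includes dim probes, lie to the left, and all 10 genes lie within the dashed lines.

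Over single probes, 12 of the 17 measured on both arrays were lower and 5 were higher. No share over all probes was computed beside this count or the next, so neither sets these probes apart. Changes of over 2 times the software error were seen in 5 probes, those of *E2f1* and *E2f3*, 2 of *E2f7* and the brightest of *Rbl1*, of which 4 were lower and 1 was higher. The 4 probes under 5 times the lowest signal well above background were 2 of *E2f7* and 2 of *Rbl1*. Genes with several probes were 5, and in 4 of them every probe measured on both arrays pointed the same way. In *Rb1* the probes lay on both sides of 0, by less than the SD between spots.

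Scaling set how many of the genes lay below 0 only for *Rb1*. With the arrays centred on the median of probes well above background, *Rb1* had a log2 fold change of 0.024 and 6 of the 10 genes were lower. Scaling to spike-in probes lowered every log2 fold change by 0.18, so that all genes had a median of -0.15 in place of 0.024, and 79.3% in place of 54.8% of the genes past 2-fold were lower. After normexp background correction that share was 44%. With spike-in scaling *E2f1*, *E2f7* and *Rbl1* were at least 1.5-fold lower. The share of all genes past 1.5-fold was not computed in that setting, where 411 in place of 215 genes were 2-fold lower. Relative to the median of all genes, *E2f3*, *E2f8* and *E2f4* were higher and the other 7 genes lower in each of the 11 settings. For *Rb1* this distance ran from -0.073 to -0.025, within its software error of 0.14, so it gives *Rb1* no direction. All settings use the same 2 arrays.

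**Figure D3:**
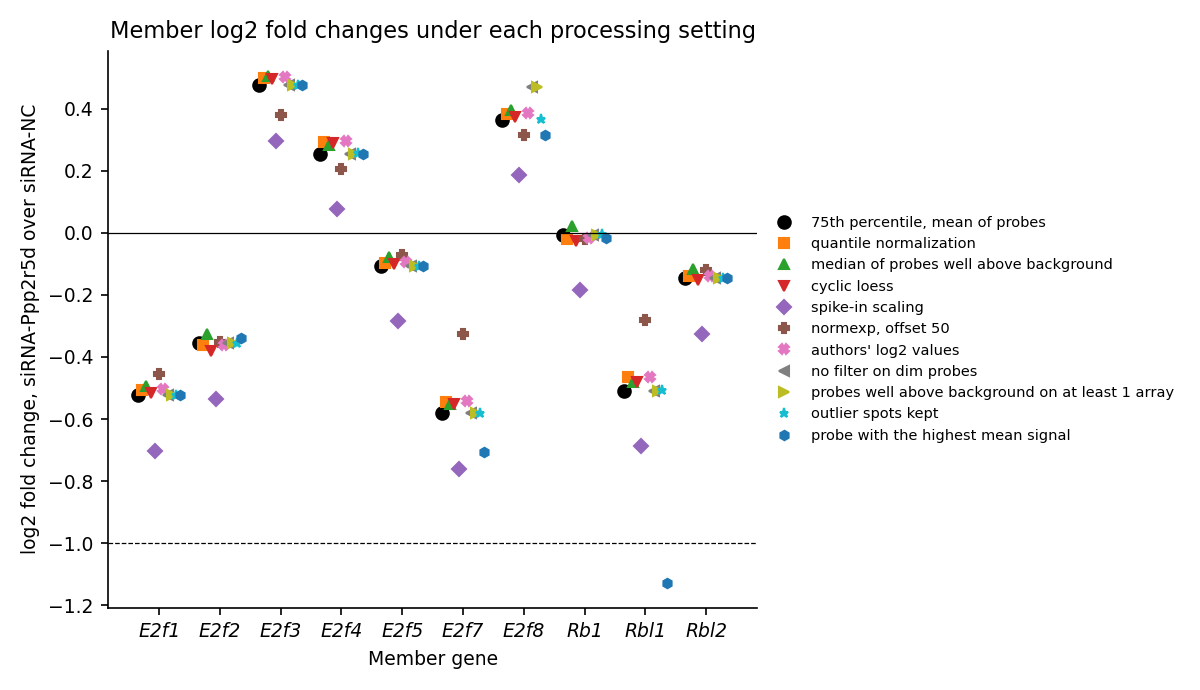
Log2 fold change (y axis) of each of the 10 genes under 11 processing settings, 1 marker per setting, where the black circle is the value given in the text and the dashed line marks 2-fold lower. *E2f3*, *E2f4* and *E2f8* are above 0 in every setting, and *Rbl1* passes 2-fold lower in 1 setting, the probe with the highest mean signal, at -1.13.

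The partners of E2Fs and the subunits of pocket protein complexes come next. *Tfdp1* and *Tfdp2*, which encode the DP partners that canonical E2Fs need to bind DNA, had log2 fold changes of 0.20 and 0.041, and *E2f6*, a repressor that works without pocket proteins, had 0.35 from 3 probes between 0.0046 and 0.80. Under scaling to spike-in probes 1 of these 3 genes, *Tfdp2*, was below 0. Of 9 genes of the MuvB and DREAM complexes and their late partners, 8 were lower, where 46.1% of all genes were, with a median of -0.14. The core subunits *Lin9*, *Lin37*, *Lin52*, *Lin54* and *Rbbp4* lay between -0.21 and -0.0046. *Mybl2*, the B-Myb gene and a well known E2F target, had an intensity of 547 with siRNA-NC and 211 with siRNA-*Ppp2r5d*, or 2.27-fold lower from 1 probe, and *Foxm1* was 1.59-fold lower. Over the 11 settings 6 to 9 of these 9 genes were lower. Without the filter on dim probes *Mybl2* and *Foxm1* had -0.57 and -0.42, and 0 of the 9 genes were 1.5-fold lower. After normexp background correction they had -0.98 and -0.41, and the median of the list was -0.013.

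Upstream of the pocket proteins, 13 of 16 cyclin, kinase and inhibitor genes were measured, of which 9 were lower, where 46.1% of all genes were. At least 2-fold lower, where 1.06% of all genes were, were 2 of the 13, *Ccnd1* and *Ccne1*, which encode cyclins that turn on kinases of Rb1. The intensities with siRNA-NC and siRNA-*Ppp2r5d* were 16370 and 6661 for *Ccnd1* and 795 and 326 for *Ccne1*. The other D cyclin genes of the list, *Ccnd2* and *Ccnd3*, had log2 fold changes of 0.039 and -0.094 from 3 probes each. *Cdk2* had -0.012 from 1 probe. After normexp background correction the log2 fold change of *Ccne1* was -0.96, short of 2-fold, and that of *Ccnd1* was -1.09. *Cdk6*, a partner of *Ccnd1*, was 1.61-fold lower in 3 probes from -0.78 to -0.62, while *Cdk4*, which can take the same place, had 0.061 from 4 probes. The kinase inhibitors lay on both sides of 0. *Cdkn1c*, *Cdkn2d* and *Cdkn1b* had -0.39, -0.32 and -0.091, while *Cdkn2c* had 0.35 from 2 probes and *Cdkn1a* had 0.30, with 3 probes from -0.19 to 0.91. *Ccne2*, *Cdkn2a* and *Cdkn2b* were well above background on neither array.

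The targets of these proteins were mostly lower. Of 38 measured genes on a list of E2F targets of G1/S and replication, 34 were lower, where 46.1% of all genes were. At least 1.5-fold lower, where 4.64% of all genes were, were 18, and at least 2-fold lower, where 1.06% were, were 8. *Ccne1*, already counted above among the upstream genes, is on this list too and among these 8. Set against the same shares, 29 of 30 genes on a list of DREAM targets of G2 and mitosis were lower, 21 at least 1.5-fold and 1 at least 2-fold. The last was *Top2a*, which encodes a DNA topoisomerase. Over the 11 settings the 2-fold counts ran from 4 to 12 and from 0 to 6. The median log2 fold changes were -0.57 and -0.67, against -0.13 for the E2F and pocket protein genes. The lists were written with earlier results of these data known, and are no independent evidence of their direction. The lowest of the G1/S targets was *Mcm5*, a subunit of the replicative helicase, with 2083 and 474, or 3.85-fold lower. At the other end *Rfc3*, a subunit of the clamp loader, had a log2 fold change of 0.57, and *Pcna*, the clamp itself, had 0.078. The highest of the G2 and mitosis targets was *Ccnf*, the gene of cyclin F, with 0.090 from 3 probes between -0.14 and 0.34.

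**Figure D4:**
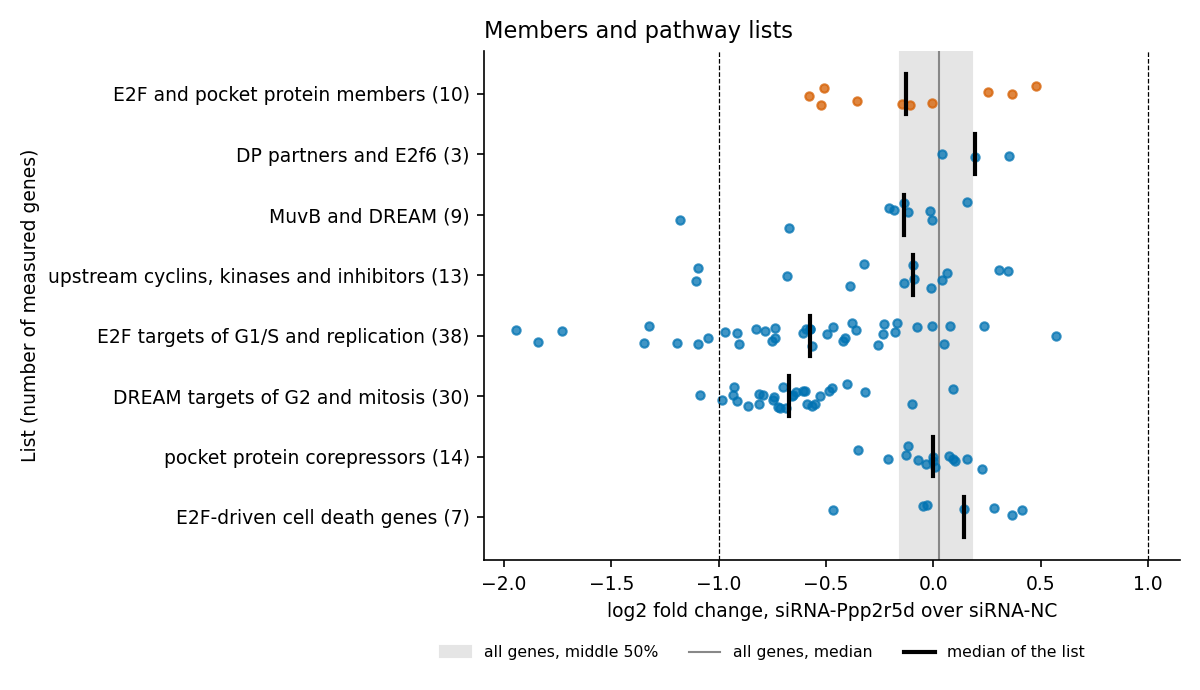
Log2 fold change (x axis) of the measured genes of each list, 1 point per gene, with the number of genes in parentheses and the median as a black bar. The grey band holds the middle 50% of all genes, from -0.16 to 0.18, and dashed lines mark 2-fold. The 10 members spread on both sides of 0, and both target lists lie mostly to the left of the band.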

How the data were processed

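Total RNA of 1 culture per siRNA was labelled with Cy3 and hybridized to 1 Agilent mouse array each. The authors deposited the intensity of each spot as given by Agilent Feature Extraction 10.7.1.1, corrected for background and spatial trends and with no scaling to another array. A table of log2 values was deposited too, by the authors, which differed from a quantile normalization by a median of 0.0010 in log2 fold change, while the normalization is not given in the sources used here.

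From the intensities, control spots and outlier spots (226 and 188) were left out, spots of a probe were averaged as log2 values, and the 75th percentile (592 for siRNA-NC and 519 for siRNA-*Ppp2r5d*) was subtracted. A gene is the mean over its probes well above background on both arrays, meaning in over 0.5 of their spots. Where 1 array alone measured a probe, a bound against the lowest such signal was taken. Probe positions are of mm9, and 10 of 10 members matched the GRCm38.p6 gene table.

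With 1 array per group no test was run, and lists are described by counts and medians. Members and lists were chosen with earlier results of these data known. All 10 members are named. Any gene of the partner and regulator lists could be named, as could up to 5 genes at each end of a target list. Not all of these are printed. For marker lists the rule was the 3 brightest genes. Other markers were named outside it, after their values were seen or because they were not well above background. The gene step was tested on simulated data. Tools were limma 3.58.1 in R 4.3.3, then NumPy 2.4.6 and pandas 2.3.3 in Python 3.11.15, and matplotlib 3.10.9 for plots.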

Additional observations from a re-analysis of the deposited data

How the results depend on the processing

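No paired analysis was possible because each group has 1 array, and no replicate could be left out. The alternatives were quantile normalization, the median of probes well above background, cyclic loess, spike-in scaling, the authors' log2 values, normexp (offset 50), no filter on dim probes, probes well above background on at least 1 array, outlier spots kept and the probe with the highest mean signal. The median log2 fold change of the 10 E2F and pocket protein genes was -0.31 with spike-in scaling, which shifts all genes alike, and otherwise moved by less than the SD between spots. With the probe of highest mean signal 1 member, *Rbl1*, was at least 2-fold lower, since that setting leaves out its dim probes. At 1.5-fold and at 4-fold the count was also 0, though with spike-in scaling 3 members passed 1.5-fold, and 2 did by their brightest probe. The share of all genes past 1.5-fold was not computed in either of these settings. After normexp correction *Rbl1* had -0.28 and *E2f7* -0.33. With the median of probes well above background, *Rb1* turned to 0.024. The median of E2F-driven cell death genes turned from 0.14 to -0.037 with spike-in scaling. That of pocket protein corepressors, -0.0018, turned to 0.028 with the median of probes well above background, 0.035 after normexp correction, 0.013 without a filter, 0.00050 with outlier spots kept and 0.064 with the brightest probe. The cause was not tested. The G1/S and mitosis target lists kept medians from -0.75 to -0.44 and from -0.85 to -0.61. Signal over background limits *Rbl1*, *E2f7* and the third probe of *E2f8*.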

Other observations

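Corepressors that pocket proteins recruit to E2F promoters lay on both sides of 0. Of 14 such genes 7 were lower, where 46.1% of all genes were, and 7 higher. None was 1.5-fold lower or higher, where 4.64% and 3.33% of all genes were. The split depended on the setting, with 13 lower and 1 higher under spike-in scaling, where the median was -0.18, and 4 lower and 10 higher after normexp correction and with the brightest probe. The ends of the list were *Hdac2*, a histone deacetylase, with a log2 fold change of 0.23, and *Suv39h1*, a histone methyltransferase, with -0.35 from 2 probes of -0.36 and -0.34.

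Genes through which E2f1 is known to drive cell death were also mixed. Of 7 measured, 4 were higher and 3 lower, where 46.1% of all genes were lower. *Pmaip1* was the highest with a log2 fold change of 0.41. *Bcl2l11* had 0.28 from 3 probes between -0.067 and 0.56, so its probes did not share a direction.

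In the list of G1/S targets, promoter windows were found for 31 of the 38 measured genes. The median log2 fold change was -0.57 over the 13 with an E2F motif and -0.46 over the 18 without one. In the list of G2 and mitosis targets, windows were found for 26 of 30 genes. There the 18 with the TTTGAA motif had a median of -0.68 and the 8 without it had -0.62. These differences were not tested.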
